A study of Homo sapiens with 2 samples.

Results

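The Frizzled receptor genes are the 10 genes FZD1 to FZD10, taken as a family out of 20046 protein-coding genes. For each gene, every summit of the ChIP-seq regions was taken that lay inside the gene or within 100 kb of the transcription start site (TSS) of any of its transcripts. A summit is the base of a region where the most reads stack. These neighbourhoods held 9 of the 3663 TCF7L1 regions and 0 of the 204 TCF7L1-MUT regions. FZD8 had been named by the study from these data and the family was chosen with earlier results known, so the counts describe these genes and are not independent evidence about them.

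Frizzled proteins are cell surface receptors with a span of transmembrane helices and an outer cysteine-rich domain that binds Wnt ligands. With the co-receptors LRP5 or LRP6 they pass the signal to Dishevelled, which ends in stabilised β-catenin and the activation of genes bound by TCF/LEF factors. They also act without β-catenin in cell polarity and movement. In the gut this signal maintains the crypt stem cells, and its surface receptors are removed by the ubiquitin ligases RNF43 and ZNRF3. TCF7L1, also known as TCF3 in older work, is a TCF/LEF factor that often represses its target genes.

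The study asked where TCF7L1 sits on chromatin in colorectal cancer cells and which of those places need its DNA-binding domain. HCT116 is an established human colon adenocarcinoma line with an activating mutation in CTNNB1, the β-catenin gene. All cells carried shTCF7L1-2, a hairpin RNA against endogenous TCF7L1 delivered by lentivirus, and the pCW57.1 plasmid, and all were treated with doxycycline at 1 µg/ml. One group expressed FLAG-tagged TCF7L1 (genotype TCF7L1 KD, pCW57.1-TCF7L1) and the other FLAG-tagged TCF7L1-MUT, with substitutions in the DNA-binding domain (genotype TCF7L1 KD, pCW57.1-TCF7L1-MUT). Chromatin was collected with an anti-FLAG antibody.

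The lines were stable, puromycin-selected HCT116 cells, and the immunoprecipitated protein was the induced exogenous one, made from a hairpin-resistant cDNA. With 1 sample per group there was no replicate error and no test between groups, and any difference describes these 2 libraries. Neither of the 2 libraries came from cells with the empty plasmid, and no comparison with such cells was made here. The files hold regions rather than reads or transcripts, so sequencing depth, the knockdown and the identity of the cells could not be checked in them. Neither list had a summit on an exon of TCF7L1.

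For each summit the peak caller gave a fold enrichment, the reads stacked there over a local background with 1 added to both, and the −log10 of a q-value. Both are the authors' values. Over all TCF7L1 regions the median fold enrichment was 5.02. Reads at each summit, as a whole number, and their local background were recovered by solving a Poisson model for both deposited values. A gene with no summit is only one without a region that passed the caller, which does not show that the protein was absent.

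TCF7L1 regions lay at the promoters of FZD1, FZD2, FZD8 and FZD10, farther out around FZD4, FZD7 and FZD8, and in no neighbourhood of FZD3, FZD5, FZD6 or FZD9. Thus 4 of the 10 genes had a TCF7L1 summit within 2.5 kb of a TSS, against 4.86% of all protein-coding genes (975 of 20046). With the gene body and 100 kb to either side, 6 of the 10 had one, against 23.1% (4632 genes). Without FZD8 these counts were 3 of 9 and 5 of 9. For TCF7L1-MUT the count was 0 of 10, against a background of 0.803% (161 genes). A share of 0 is near that background and is not a result about the family.

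Of the 9 summits, 4 lay within 2.5 kb of a Frizzled TSS and 5 lay farther out, at 3 genes. None lay inside a Frizzled gene. All 4 promoter summits were upstream of the TSS, whereas 464 of the 954 TCF7L1 promoter summits without a TCF7L1-MUT partner (48.6%) were upstream. The median distance from a TSS to the nearest TCF7L1 summit was 24664 bp over the Frizzled genes and 342854 bp over all protein-coding genes. For TCF7L1-MUT the nearest summit was 1310850 bp (FZD2) to 110330937 bp (FZD5) away for the 9 genes with a TCF7L1-MUT region on their chromosome. FZD10 had none on its chromosome. None of the 9 TCF7L1 regions overlapped a TCF7L1-MUT region, which was also the case for 96.4% of the list (3531 of 3663), so this is not a result about the family.

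**Figure D1:**
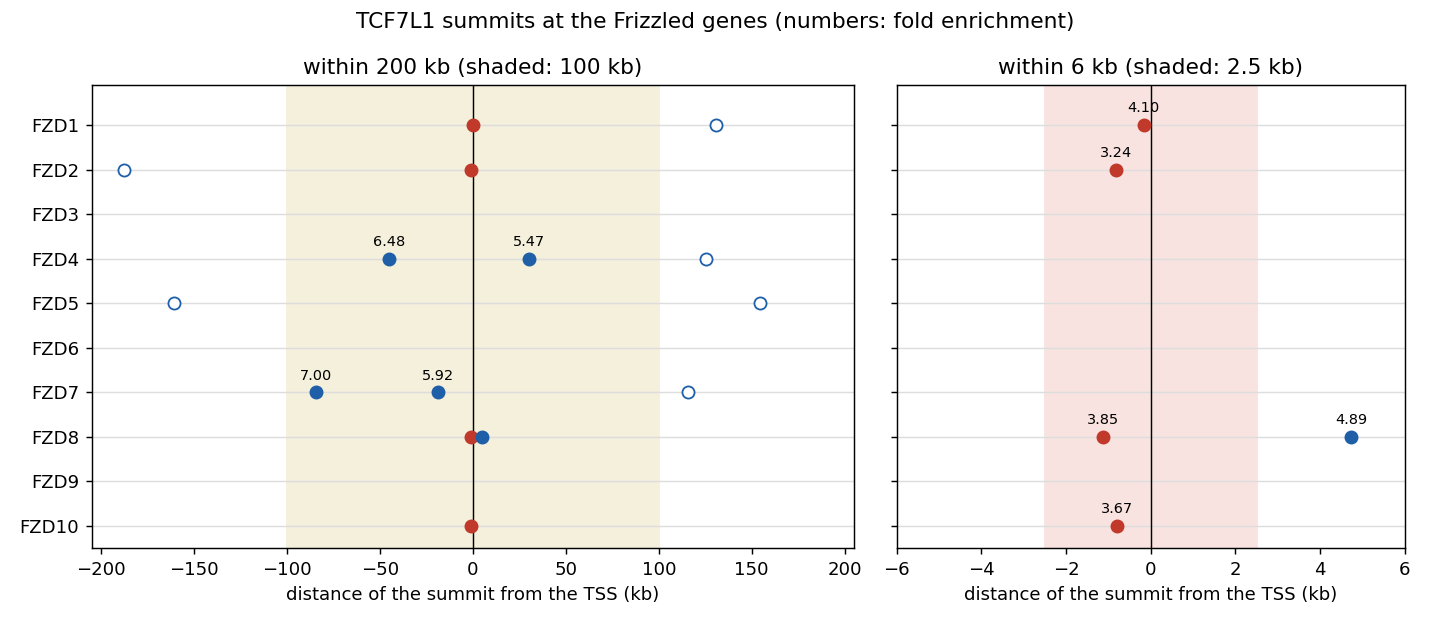
Distance of each TCF7L1 summit from the nearest TSS of each Frizzled gene in kb, negative upstream, with the wider view at left and the area around the TSS at right. Red points lie within 2.5 kb of the TSS, blue points farther out, open points beyond 100 kb, and numbers are fold enrichments. Within 100 kb, summits lie at 6 of the 10 genes, and the 4 red points are all upstream.

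The promoter windows that carried summits are shown first, as 201 bases centred on the summit, so that the letters under each region can be read. They are from GRCh38/hg38 and are written 5′ to 3′ on the strand of the gene. Capitals mark matches, on either strand, to a TCF word or its core. The TCF words searched were CTTTGAA and CTTTGAT and also CTTTGTA and CTTTGTT, and the core CTTTG is the first part of each, so every TCF word also counts as a core. On the reverse strand the core reads CAAAG.
FZD1, chr7:91264169-91264369, plus strand: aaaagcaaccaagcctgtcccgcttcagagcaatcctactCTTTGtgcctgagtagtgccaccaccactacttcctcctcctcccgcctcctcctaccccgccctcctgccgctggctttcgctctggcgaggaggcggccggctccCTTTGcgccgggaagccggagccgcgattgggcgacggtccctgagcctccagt
FZD2, chr17:44556558-44556758, plus strand: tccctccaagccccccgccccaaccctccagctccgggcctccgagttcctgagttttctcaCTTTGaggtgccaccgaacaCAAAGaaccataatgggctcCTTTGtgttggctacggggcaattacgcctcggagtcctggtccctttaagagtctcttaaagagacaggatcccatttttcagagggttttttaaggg
FZD8, chr10:35643313-35643513, minus strand: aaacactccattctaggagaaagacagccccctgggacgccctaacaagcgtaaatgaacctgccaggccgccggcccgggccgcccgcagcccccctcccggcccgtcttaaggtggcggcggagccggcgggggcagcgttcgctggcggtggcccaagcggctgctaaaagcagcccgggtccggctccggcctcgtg
FZD10, chr12:130161570-130161770, plus strand: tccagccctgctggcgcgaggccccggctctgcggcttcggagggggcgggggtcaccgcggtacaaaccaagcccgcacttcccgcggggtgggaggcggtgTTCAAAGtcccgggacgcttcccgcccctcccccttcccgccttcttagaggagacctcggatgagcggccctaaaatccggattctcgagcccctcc

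The FZD1 window held 2 cores and the FZD2 window 3, none of them extended to a full TCF word. At least 3 cores stood in 141 of the 3631 TCF7L1 windows on reference sequences (3.88%). The limit of 3 equals the count in the FZD2 window, so this share is not independent of that window. The FZD8 promoter window held no core, and neither did the rest of its region. The FZD10 window held the word CTTTGAA on the reverse strand, 6 bp from the summit. These matches are letters in a window and do not show that the protein touched them.

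The FZD10 region held 2 more TCF words just outside that window. They face each other 2 bp apart and form a stretch of 16 bp that is its own reverse complement, 128 bp from the summit and 661 bp upstream of the TSS. It is shown because both words of the pair can be read in it.
FZD10 inverted pair, chr12:130161778-130161817, plus strand: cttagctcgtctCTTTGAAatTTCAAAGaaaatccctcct

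With these, the FZD10 region held 3 TCF words. A total of 108 of the 3631 TCF7L1 regions (2.97%) held at least 3, and 5 (0.138%) held an inverted pair with a gap of at most 5 bp. Both counts were made after the FZD10 sequence had been seen. The FZD10 region was one of the weaker regions on the list, with a fold enrichment of 3.67.

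FZD1, FZD2 and FZD7 form the closest subgroup of Frizzled receptors, and all 3 had a TCF7L1 region in their neighbourhood. FZD1 (ENSG00000157240.4, chr7:91264433-91271326, plus strand) had the summit closest to a TSS, 164 bp upstream. This region, chr7:91264026-91264335, had a fold enrichment of 4.10 and 20 reads at the summit over a background of 4.12, and its −log10 q was 3.93. The exact Poisson 95% interval of the 20 reads was 12.2 to 30.9, which, as for all intervals given here, covers counting error only. No other protein-coding gene had a TSS within 100 kb of FZD1.

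FZD2 (ENSG00000180340.7, chr17:44557484-44561262, plus strand), a receptor known for WNT5A signalling, had a region 826 bp upstream at chr17:44556486-44556849. Its summit had a fold enrichment of 3.24, the lowest of the 9, and −log10 q 2.57. It had 22 reads (13.8 to 33.3), more than FZD1, over a background of 6.11, the highest of the 9. In the whole list 97.5% of TCF7L1 regions had a higher fold enrichment. The FZD2 region was also the one lost when the q-value had to be at most 0.001.

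FZD7 (ENSG00000155760.3, chr2:202033855-202038441, plus strand), a receptor used by intestinal stem cells, had no promoter summit but 2 intergenic ones upstream. The nearer, chr2:202014749-202015084, lay 18956 bp upstream with 24 reads (15.4 to 35.7), a fold enrichment of 5.92 and −log10 q 8.68. The farther, chr2:201949357-201949881, lay 84272 bp upstream with 29 reads (19.4 to 41.6), −log10 q 12.8 and a fold enrichment of 7.0, the highest of the 9. FZD7 was the protein-coding gene with the nearest TSS to both. Nearest of all TSSs was that of the lncRNA ENSG00000289026 for the first and of RNU6-440P, a small nuclear RNA pseudogene, for the second, which does not tell which gene, if any, the regions act on.

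FZD5 and FZD8 form another subgroup, and only FZD8 had regions. FZD8 (ENSG00000177283.8, chr10:35638247-35642296, minus strand) had one on each side. The promoter region, chr10:35643238-35643612, lay 1117 bp upstream with 18 reads (10.7 to 28.4), a fold enrichment of 3.85 and −log10 q 3.01. It also lay in an intron of the lncRNA ENSG00000287528. TSSs of that lncRNA, of ENSG00000288893 and of MIR4683 lay within 2.5 kb of this promoter summit, but farther than that of FZD8. The downstream region, chr10:35637414-35637730, lay 4729 bp from the TSS and 680 bp past the 3′ end of the gene, with 23 reads (14.6 to 34.5), a fold enrichment of 4.89 and −log10 q 6.32. Nearer to the downstream summit than the FZD8 TSS were those of the lncRNA ENSG00000287528, 3530 bp away, and of the microRNA gene MIR4683, 3685 bp away. FZD8 was the protein-coding gene with the nearest TSS. The backgrounds of the promoter and downstream regions were 3.94 and 3.91, and their read intervals overlapped.

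FZD4, FZD9 and FZD10 form the subgroup that includes the norrin receptor FZD4, whose signalling shapes retinal vessels. FZD4 (ENSG00000174804.4, chr11:86945679-86955395, minus strand) had 2 regions, both far from its TSS. The region chr11:87000257-87000754 lay 45099 bp upstream on an exon of the divergent lncRNA FZD4-DT, where the fold enrichment was 6.48 and −log10 q 14.2. It had 35 reads (24.4 to 48.7), the most of the 9 summits. The protein-coding TSS nearest to it was that of TMEM135, 37350 bp away, and not that of FZD4.

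The other FZD4 region, chr11:86924816-86925211, lay 30372 bp downstream of the FZD4 TSS in an intron of PRSS23, which encodes a serine protease. Its summit was 14 bp from the TSS of the lncRNA PRSS23-AS1 and 15763 bp from that of PRSS23, so FZD4 was not its nearest gene. Its fold enrichment was 5.47, its −log10 q 8.15 and its read count 25 (16.2 to 36.9). Each FZD4 region held the word CTTTGAA, 28 bp from the summit in this region and 107 bp from it in the upstream one, as the following stretches show with the word in capitals.
FZD4, chr11:86924981-86925009, minus strand: taaagaagggcCTTTGAAgggtcaactcc
FZD4, chr11:87000587-87000615, minus strand: tgcatgtatctCTTTGAAgctccagccct

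Both stretches carry the same 7 bases, written on the minus strand, in flanks that differ. These were the distal Frizzled regions with a full TCF word. The 2 FZD7 windows held no core within 100 bp of the summit, and the downstream FZD8 window held 1 core, 85 bp away.

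FZD10 (ENSG00000111432.5, chr12:130162459-130165740, plus strand), whose product is studied as a surface antigen of tumours, had its region 789 bp upstream at chr12:130161555-130161898. The summit lay on an exon of the antisense lncRNA FZD10-AS1, 8 bp from that gene's TSS, so the start of FZD10-AS1 was nearer than that of FZD10. It had 21 reads (13.0 to 32.1) over a background of 4.99, a fold enrichment of 3.67 and −log10 q 3.31. FZD9 (ENSG00000188763.5, chr7:73433778-73436120) had its nearest TCF7L1 summit 277138 bp upstream.

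FZD3 and FZD6, which act mainly in planar cell polarity, had no region in their neighbourhoods. The nearest TCF7L1 summit lay 519459 bp upstream of FZD3 (ENSG00000104290.11) and 308660 bp downstream of an FZD6 (ENSG00000164930.12) TSS. For FZD5 (ENSG00000163251.4), a receptor of Paneth cells in the crypt, it lay 154454 bp downstream of the TSS. The 100 kb limit fell between 2 FZD7 summits, one 84272 bp upstream and counted and one 115649 bp downstream and not counted. Just beyond it also lay summits 125571 bp from FZD4 and 130679 bp from FZD1.

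By fold enrichment the regions split by distance from the Frizzled TSS, the promoter ones below the distal ones. Distal here means far from a Frizzled TSS only. The distal FZD4 summit with a fold enrichment of 5.47 lay 14 bp from the TSS of the lncRNA PRSS23-AS1. The 4 promoter summits had values of 3.24 to 4.10 (median 3.76), and none reached the median of the list. The 5 distal summits had values of 4.89 to 7.0 (median 5.92), and 4 of them were above the list median. The ranges did not overlap, but both groups were defined within 1 library and by position alone. Read counts differed less, 18 to 22 at the promoters and 23 to 35 farther out, and the exact Poisson intervals overlapped in all 36 pairs of summits. Local background was 3.94 to 6.11 at the promoters and 3.22 to 4.56 at the distal summits.

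Among all TCF7L1 summits without a TCF7L1-MUT partner, the direction was the same with a smaller difference. The 954 promoter summits without a TCF7L1-MUT partner had a median fold enrichment of 4.57 (quartiles 3.98 and 5.41) and a median background of 3.69, and the other 2665 summits had 5.07 and 3.19. Of the promoter Frizzled summits, FZD1 lay within those quartiles and FZD2, FZD8 and FZD10 below them. In both comparisons the background was higher where the fold enrichment was lower. The background is what the fold enrichment is divided by, and its part in the result was not tested.

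**Figure D2:**
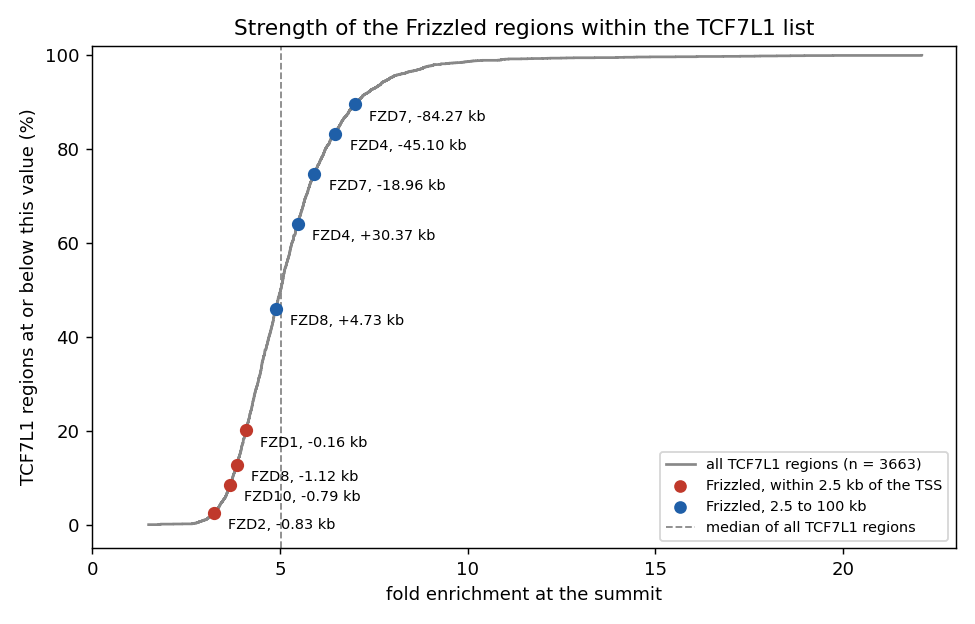
Share of TCF7L1 regions (y axis, %) at or below each fold enrichment at the summit (x axis), with the Frizzled regions marked on the curve. The 4 promoter summits (red) lie between 3.24 and 4.10, left of the dashed list median of 5.02, and the 5 distal summits (blue) between 4.89 and 7.0.

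The lists stopped at a similar q-value, with a lowest −log10 q of 1.31 for TCF7L1 and 1.37 for TCF7L1-MUT, but not at the same p-value. TCF7L1 regions went down to a −log10 p of 5.21 and TCF7L1-MUT regions only to 6.35. Over the same background, more reads were thus needed to match the weakest region of the second list. At the backgrounds of the 9 Frizzled regions, 15 to 22 reads would have reached the lowest p-value of the TCF7L1-MUT list. All 9 regions had at least that many. FZD2, with 22 reads where 22 were needed, and FZD8 at its promoter, with 18 where 17 were needed, stood at this edge, while FZD4 upstream had 35 where 18 were needed. A region weaker than those of FZD2 or FZD8 could thus have gone unlisted in the TCF7L1-MUT sample, if its background were the same there. The lowest p-value is that of the weakest listed region, and the caller's own threshold is not known.

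**Figure D3:**
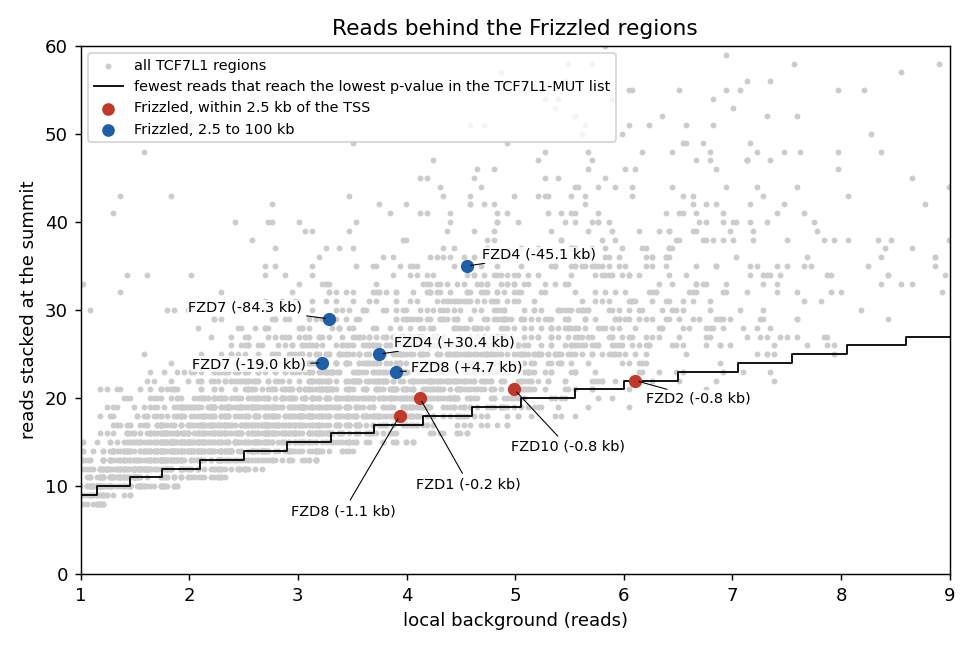
Reads stacked at the summit (y axis) against the local background in reads (x axis) for TCF7L1 regions (grey), with the Frizzled regions coloured as promoter (red) or distal (blue) and labelled with their distance from the TSS. The stepped line is the fewest reads that reach the lowest p-value of the TCF7L1-MUT list. The axes leave out the regions with the most reads or the highest background. FZD2 lies on the line and FZD8 at its promoter just above it.

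The starts of the Frizzled genes are rich in CpG, which bears on what they should be compared with. Over 1 kb at the TSS their GC content was 53.9% (FZD6) to 76.5% (FZD10), with an observed over expected CpG ratio of 0.73 to 0.96. All 10 passed a CpG-rich limit (GC of at least 50% and a ratio of at least 0.6), and among CpG-rich protein-coding genes 5.57% (647 of 11609) had a TCF7L1 summit within 2.5 kb. Most of the family also has few transcripts, and so few TSSs that a summit could fall near. Of the 7 members with 1 transcript, 3 had a promoter summit, against 2.59% (76 of 2933) of protein-coding genes with 1 transcript. Both backgrounds were added after the data had been seen.

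Sequence patterns were counted in the 9 windows of 201 bp on both strands and set beside the 3631 TCF7L1 windows. A TCF word stood in 2 of 9 Frizzled windows and in 26.7% of all TCF7L1 windows, and the core in 5 of 9 and 56.5%. The degenerate words TTTGAA and TTTGAT, which overlap the TCF word, and TTTTAA and TTTTAT stood in 6 of 9 and 53.4%. The study had found this degenerate pattern by searching its own TCF7L1 regions, so its share in the list is not independent evidence. Around the TSSs of all protein-coding genes the shares were 7.05%, 30.7% and 22.1%. In this respect the Frizzled windows were close to the rest of the list. With 250 bp to either side of the summit, 4 of 9 windows held a TCF word, against 47.9% of the list. The fourth was the FZD2 window, whose CTTTGTA lay 189 bp from the summit, with its core inside the region and its last base past the edge.

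Other patterns were counted by position in the same windows. With 4 promoter and 5 distal windows these counts are small, and no difference between them was tested. The word GGGCGG, bound by SP and KLF factors, stood in all 4 promoter windows and in 0 of the 5 distal ones. In the whole list it stood in 26.8% of 918 promoter windows, 9.62% of 2713 others and 46.9% of TSS windows. The GATA words AGATAA and AGATAG and also TGATAA and TGATAG stood in 0 promoter and 3 distal Frizzled windows, those of FZD7 and the upstream one of FZD4, against 22.7% and 35% in the list. The forkhead words TATTTAC and TGTTTAC and the AP-1 words TGACTCA and TGAGTCA stood in 0 of 9 windows, against 12.6% and 7.3% of the list. In 9 windows a count of 0 is near those shares and is not a result about the family. The study had found GATA and forkhead patterns by searching its own TCF7L1 regions, so their shares in the list are not independent evidence.

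**Figure D4:**
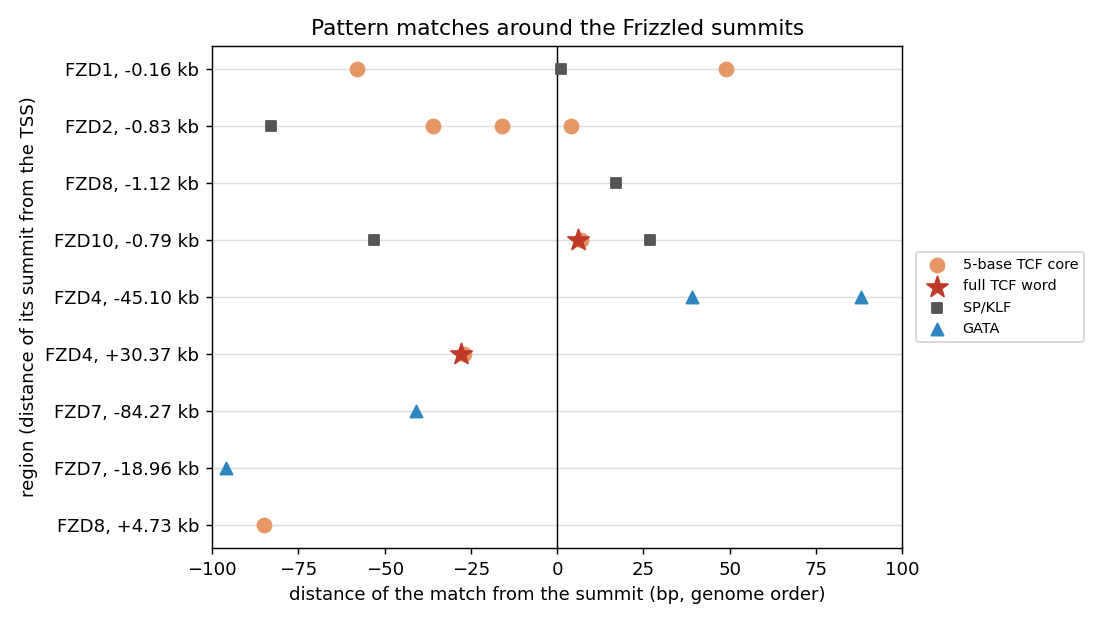
Position of pattern matches within 100 bp of each Frizzled summit (x axis, bp from the summit in genome order), with 1 row per region, the promoter regions above the distal ones. Full TCF words (stars) lie in the FZD10 window and in 1 FZD4 window, GGGCGG (squares) in the 4 promoter windows, and GATA words (triangles) in 3 distal windows. Degenerate TCF words are not drawn.

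Base composition also varied between the windows. GC content was 65.2% in the FZD1 window, 53.7% in that of FZD2, 70.6% at the FZD8 promoter and 69.7% at FZD10. The distal windows had 47.8% to 52.7%. The mean was 55.4% over promoter windows and 52.5% over all TCF7L1 windows, so the promoter windows of FZD1, FZD8 and FZD10 were above both means. Every 31-base word of the 9 windows occurred once in the reference. The longest run of bases that any pair of windows shared was 12 bp.

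The genes with the promoter summit most like each Frizzled one were taken as the 2 with the closest fold enrichment among those whose summit lay within 250 bp of the same distance from the TSS. These likenesses rest on 1 sample. For FZD1 they were MITF (4.11, 140 bp upstream), the melanocyte transcription factor, and SETD9 (4.11, 2 bp downstream), out of 431 genes. For FZD2 they were ZNF503 (3.24, 942 bp upstream) and SMC3 (3.30, 978 bp upstream), a cohesin subunit, out of 67. FZD8 was closest to SLC49A4 (3.86, 893 bp upstream), out of 49. FZD10 was closest to CD164 (3.70, 674 bp upstream), a sialomucin, and PEG10 (3.70, 947 bp upstream), an imprinted gene derived from a retrotransposon, out of 70. The match took no account of the q-value, which could differ widely. The −log10 q was 11.7 at ZNF503 against 2.57 at FZD2, and 1.92 at MITF against 3.93 at FZD1. At SLC49A4 it was 3.24, close to 3.01 at FZD8.

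The other genes of Wnt reception were counted in the same way. Of 54 such genes, 5 (9.26%) had a TCF7L1 summit within 2.5 kb and 16 (29.6%) in the gene or within 100 kb, and none had a TCF7L1-MUT summit, a share near the background of 0.803%. Among the 7 co-receptors, 0 had a promoter summit and 3 a summit within 100 kb, the receptor-kinase family members ROR1, ROR2 and PTK7. Among 20 ligands the counts were 3 and 5, among 13 secreted inhibitors 1 and 4, among 9 genes of receptor turnover 1 and 4, and among 5 cytoplasmic and membrane partners 0 and 0.

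The promoter summits of these lists reached higher values than those of the Frizzled genes. DKK1, a secreted inhibitor that binds LRP5 and LRP6, had the highest, a fold enrichment of 6.83 with 56 reads at chr10:52313358-52314528, 61 bp upstream. WNT5A, a ligand that often acts without β-catenin, had 5.45 with 35 reads 1272 bp upstream. LGR5, the R-spondin receptor of crypt stem cells, had 4.56, and the ligands WNT16 and WNT5B had 4.29 and 3.16. The median of the 5 was 4.56, against 3.76 over the 4 Frizzled promoter summits, and the ranges overlapped.

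**Figure D5:**
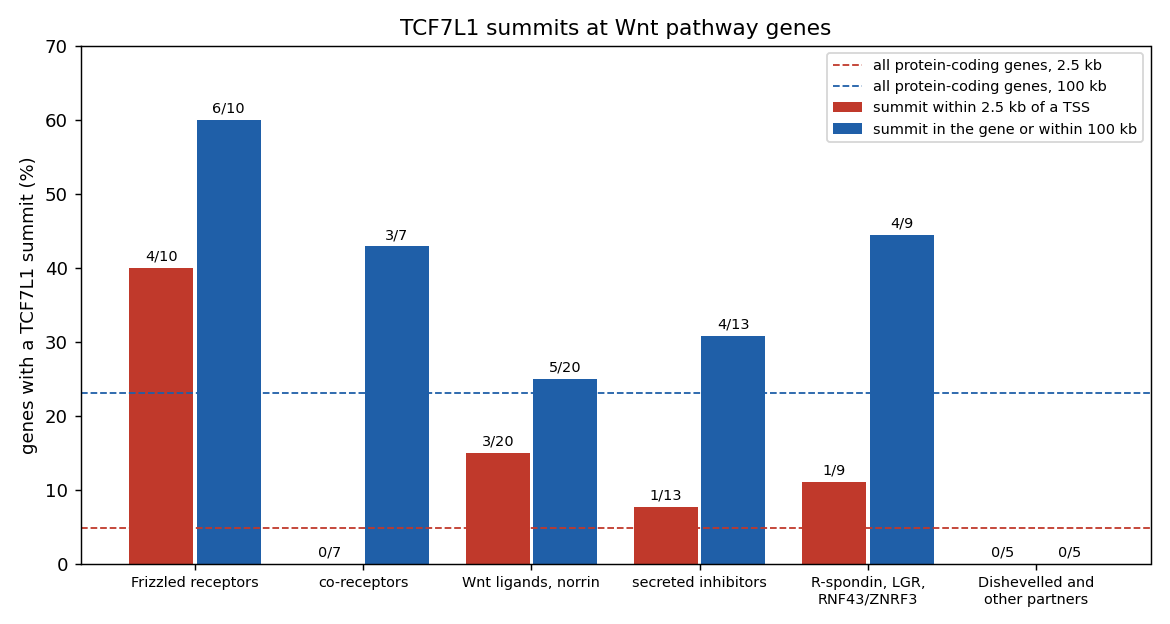
Share of genes (y axis, %) with a TCF7L1 summit within 2.5 kb of a TSS (red) and in the gene or within 100 kb (blue), for the Frizzled genes and 5 lists of other Wnt pathway genes, with counts above the bars. Dashed lines give the shares over all protein-coding genes, 4.86% and 23.1%, and the Frizzled bars stand for 4 and 6 of 10 genes.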

How the data were processed

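ChIP-seq regions of HCT116 cells were analysed, 1 TCF7L1 and 1 TCF7L1-MUT sample, grouped by genotype. The authors trimmed reads with skewer, checked them with FastQC, mapped them to GRCh38/hg38 with BWA 0.7.12 and called peaks in each sample with MACS2 2.1.0. The use of an input library, the q-value threshold and the handling of duplicates were not given in the sources used here. These choices can change which weak regions are listed.

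The deposited lists give each summit a fold enrichment (a ratio to local background, with a pseudocount of 1), and the −log10 of its p-value and q-value. The deposited score and the summit lists, which repeat the summits, were not used. Depth per library was not analysed here, so precision was given as exact Poisson 95% intervals of the reads at a summit. A Poisson model was solved for the reads and background that give the deposited fold enrichment and p-value, for 3663 of 3663 TCF7L1 and 203 of 204 TCF7L1-MUT regions. The median background was 3.26 and 3.02.

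A region with several summits was represented by its strongest one in counts of regions, and 44 regions on sequences outside the reference entered no window. Genes and TSSs came from GENCODE release 44, and coordinates are 1-based. The RefSeq promoter table for GRCh38 matched 5 of 10 members, with TSSs 0 bp from those of GENCODE. Regions were shared with an overlap of at least 1 bp.

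The text names the 10 members, pathway genes with a summit within 2.5 kb or named in a count of at most 5, and the 2 most similar promoters per member, of which 1 is not reported here. Members and lists were chosen with earlier results of these data known. Chosen after the data were seen were the CpG-rich and 1-transcript backgrounds and the counts of at least 3 words and of inverted pairs. Alternatives were other limits on q-value, fold enrichment, distance, overlap, window and pattern. No test was run, since 1 library per group gives no replicates. Computations used Python 3.11.15, numpy 2.4.6, scipy 1.17.1, pysam 0.24.0 and matplotlib 3.10.9, and were tested on simulated data.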

Additional observations from a re-analysis of the deposited data

How the results depend on the processing

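No paired analysis was possible because there was only 1 sample per group, and for the same reason no sample could be left out. Of 48 alternatives over 8 counts, 35 stayed within 1.5 times the main count. A fold enrichment of at least 5 left 2 Frizzled genes within 100 kb (FZD4 and FZD7), 0 within 2.5 kb and 4 summits, and 384 (1.92%) and 2335 (11.6%) of all protein-coding genes within 2.5 and 100 kb. Neighbourhoods of 20 kb and 200 kb gave 5 and 7 Frizzled genes, against 2184 (10.9%) and 7181 (35.8%) protein-coding genes. The 200 kb limit gave 15 Frizzled summits. Windows with a TCF word were 4 with 250 bp to either side, 5 with the core and 6 with the degenerate words. Genes within 2.5 kb were 647 among those with a CpG-rich start and 76 among those with 1 transcript, both added after the data were seen and by construction over fewer genes. A limit of 1 kb kept 3 Frizzled promoters, against 776 genes (3.87%), and FZD8 was the one left out. The counts that stayed include those for TCF7L1-MUT at the Frizzled genes, which were 0 and could not rise under the alternatives run, since its nearest summit lay 1310850 bp away. The 4 promoter summits rest on 18 to 22 reads each, against a median of 20 over the list.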
